A study of Mus musculus with 27 samples.

Results

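Naive T cells sorted from lymph node were compared with Foxp3- thymocytes of intermediate surface CD24, as a measure of how the transcriptome of conventional T cells differs between a late thymic stage and the periphery. CD24 is a surface glycoprotein that declines as single-positive thymocytes mature. The comparison rests on 6 of the 27 arrays of the study, 3 from lymph node naive T cells and 3 from Foxp3-GFP- CD24int thymocytes, chosen by their labels alone. All cells came from mice of the Balb/c background, and the labels of the thymic groups name a green fluorescent protein (GFP) reporter of Foxp3, the transcription factor of regulatory T cells (Tregs). The other groups used here are Foxp3-GFP- CD24lo thymocytes, Tregs from lymph node and Foxp3+GFP+ CD24int thymocytes, with 3 arrays each. The labels give neither the age nor the sex of the mice, nor whether cells of several mice were pooled, and they do not say how the naive cells were gated. The source labels of the Foxp3- thymocyte groups also carry the word Treg, whereas the study's design text calls these cells conventional T cells.

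RNA was extracted from the sorted cells, and 50 ng of it was labelled for Affymetrix 3′ expression arrays. Levels below are log2 of the deposited intensities, and each gene is read from 1 probe set, the brightest that carries a single gene symbol. A difference of 1 is therefore 2-fold, and a level under 5 is called dim, since the median intensity of an array lay between 30.3 and 32.0, close to log2 5. Levels are compared between groups within 1 gene and never between genes. Replicate arrays of a group correlated at 0.987 to 0.997, and no counts or read depths exist for arrays. Nothing in the labels says that replicates came from separate mice or sorts, so the p-values measure only the spread between these samples.

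Single-positive thymocytes finish selection in the medulla, lose the traces of recent T cell receptor signalling and acquire the receptors that take them into blood. After exit, recent thymic emigrants settle in lymph nodes and complete maturation there as long-lived resting cells. Medullary thymocytes are also exposed to type I and type III interferons that thymic epithelium makes without infection.

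The labels were first checked against genes that define them. Foxp3 averaged 4.17 ± 0.22 in LN naive cells and 3.82 ± 0.25 in Foxp3- CD24int thymocytes (SD, n = 3 each), both dim, whereas the LN Treg and Foxp3+ CD24int groups averaged 9.90 ± 0.15 and 10.07 ± 0.12. Il2ra, which encodes the CD25 chain of the interleukin 2 receptor, showed the same division, with 4.45 ± 0.40 in LN naive cells, 4.32 ± 0.29 in Foxp3- CD24int thymocytes, 9.90 ± 0.24 in LN Tregs and 10.26 ± 0.22 in Foxp3+ CD24int thymocytes. Cd24a itself was at 5.91, 7.17 and 7.59 in LN naive cells, against 7.41, 8.44 and 8.77 in Foxp3- CD24int thymocytes. The 2 groups overlapped, and the difference of -1.32 ± 0.42 missed the threshold (adjusted p = 0.0536). It passed without CD24int replicate 1, at -1.72 (adjusted p = 0.0172), without LN naive replicate 3, at -1.67 (adjusted p = 0.0251), and without dim genes (adjusted p = 0.0401), and it shrank to -0.83 without LN naive replicate 1. Cd24a averaged 10.93 in Foxp3- CD24hi and 6.00 in Foxp3- CD24lo thymocytes, so its order over the Foxp3- thymic groups followed the labels. Cd4 differed by -0.26 ± 0.16 (adjusted p = 0.412) and Cd8a by -0.01 ± 0.23 (adjusted p = 0.995), neither past the threshold.

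Of 18194 genes tested, 1558 (8.56%) passed an adjusted p of 0.05, 797 (4.38%) higher and 761 (4.18%) lower in LN naive cells. The test was limma's moderated test on 9 group means over all 27 arrays, two-sided, with Benjamini-Hochberg adjustment over all genes. Among them, 428 differed by at least 2-fold, 2.35% of all, of which 150 (0.824%) were higher and 278 (1.53%) lower in LN naive cells. The 3 arrays of each group did not overlap for 4209 genes, 23.1% of those tested. The median difference over all genes was 0.05, so list medians below can be read against a value near 0. Counts of list members called in this comparison can likewise be read against the 4.38% higher and 4.18% lower of all genes. Leaving out 1 of the 6 arrays gave 1108 to 1352 calls, and the balance of directions moved with it: without CD24int replicate 2 there were 613 higher and 739 lower, and without CD24int replicate 1 there were 713 higher and 544 lower. Quantile normalization gave 993 higher and 737 lower.

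The 3 markers given for this comparison did not behave alike. Dapl1, which encodes death associated protein-like 1, a gene of quiescent naive T cells, was at 11.66, 11.65 and 11.59 in LN naive cells, against 7.72, 7.70 and 7.70 in Foxp3- CD24int thymocytes. It was the largest rise of all genes whose groups did not overlap, at 3.92 ± 0.31 (SE), 15.2-fold, adjusted p = 5.77e-09. Pdlim4, a PDZ and LIM domain protein that binds actin-associated partners, was at 10.26, 10.30 and 10.21 in LN naive cells, against 7.80, 7.81 and 7.83 in Foxp3- CD24int thymocytes, a rise of 2.44 ± 0.23 (SE), 5.44-fold, adjusted p = 9.82e-08. In both genes the arrays of a group lay within 0.1 of each other and the groups stood far apart. Itgae, which encodes the CD103 chain of the integrin that binds E-cadherin, ran the other way. It was at 4.79, 4.52 and 4.88 in LN naive cells, against 8.15, 7.77 and 5.94 in Foxp3- CD24int thymocytes, a fall of -2.55 ± 0.42 (SE), 5.87-fold, adjusted p = 0.000191. The LN naive arrays were all dim, and CD24int replicate 3 lay well below the other two arrays of its group. Itgae therefore does not mark the lymph node group of these arrays, and neither Dapl1 nor Pdlim4 was called between CD24lo and CD24int thymocytes (adjusted p = 0.0544 and 0.863).

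**Figure D1:**
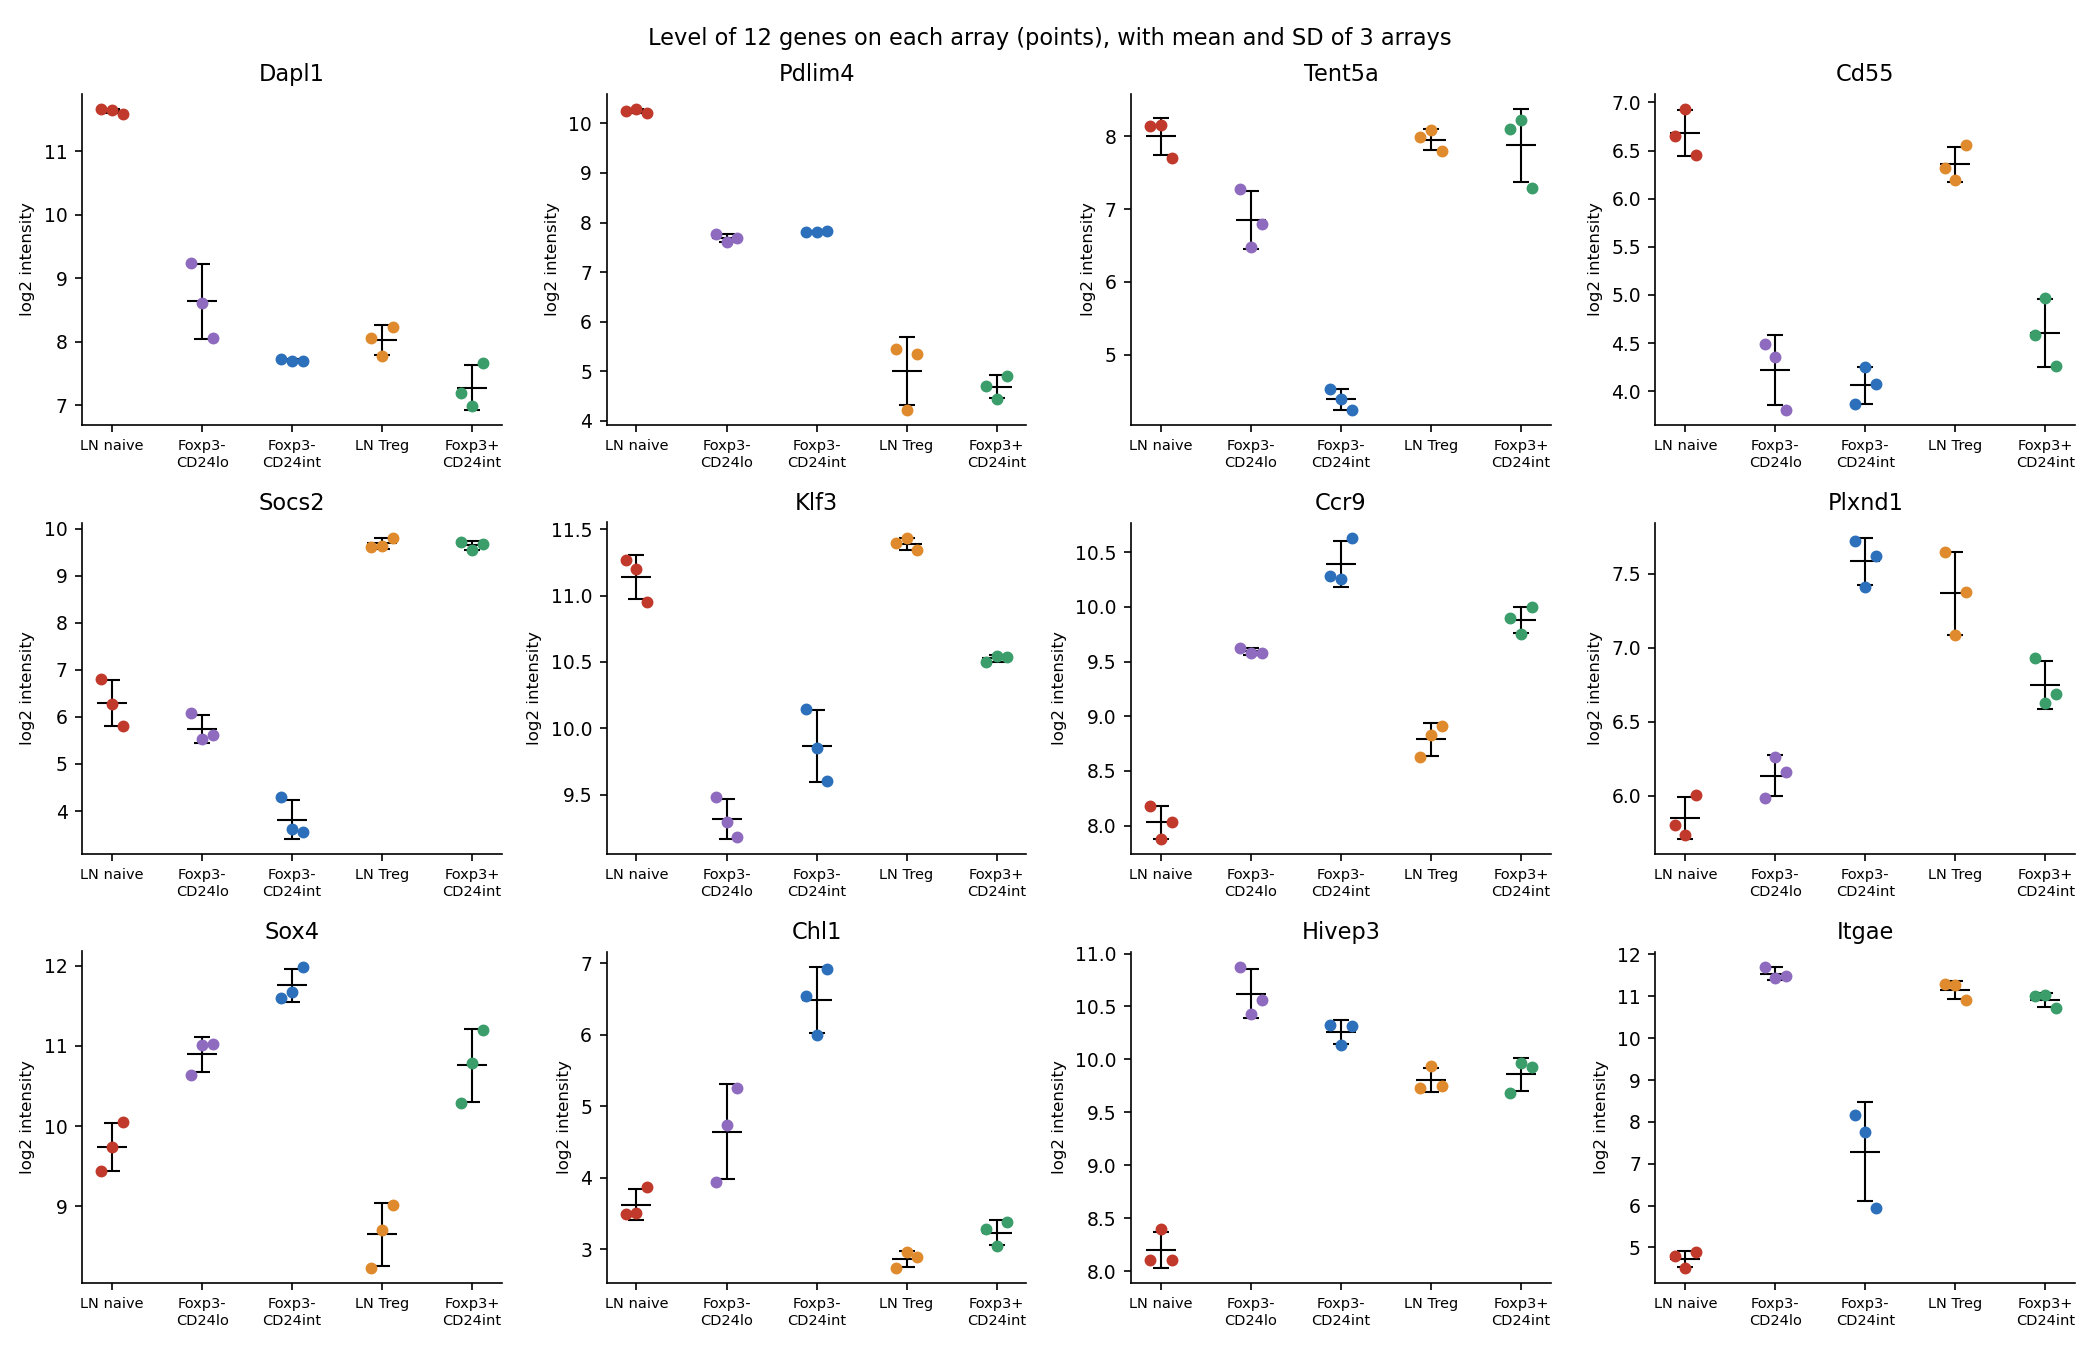
Log2 intensity (vertical axis) of 12 genes in LN naive, Foxp3- CD24lo, Foxp3- CD24int, LN Treg and Foxp3+ CD24int arrays; points are arrays, bars the mean and SD of 3. Dapl1, Pdlim4, Tent5a, Cd55, Socs2 and Klf3 stand higher in all 3 LN naive arrays than in all 3 Foxp3- CD24int arrays, and Ccr9, Plxnd1, Sox4, Chl1, Hivep3 and Itgae lower.

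Further genes of the largest rises included signalling, surface and enzyme genes. Tent5a, a non-canonical poly(A) polymerase, was at 8.14, 8.15 and 7.70 in LN naive cells, against 4.54, 4.39 and 4.25 in Foxp3- CD24int thymocytes, all 3 of them dim, a rise of 3.60 ± 0.26 (SE), 12.2-fold, adjusted p = 1.62e-09. Sntb1, the dystrophin-associated adaptor beta-1-syntrophin, was at 8.31, 8.67 and 8.39 in LN naive cells, against 5.47, 5.16 and 4.86 in Foxp3- CD24int thymocytes, a rise of 3.29 ± 0.24 (SE), 9.8-fold, adjusted p = 2.36e-09. Neither gene's groups came near each other. Cd55, the decay-accelerating factor that protects cells from complement, was at 6.65, 6.94 and 6.46 in LN naive cells, against 3.86, 4.25 and 4.07 in Foxp3- CD24int thymocytes, all 3 of them dim, a rise of 2.62 ± 0.23 (SE), 6.15-fold, adjusted p = 1.80e-08. It did not pass between CD24lo and CD24int thymocytes, where the difference was 0.16 ± 0.23 (adjusted p = 0.801). Socs2, a feedback inhibitor of cytokine signalling, was at 6.80, 6.29 and 5.81 in LN naive cells, against 4.29, 3.62 and 3.54 in Foxp3- CD24int thymocytes, all 3 of them dim, a rise of 2.48 ± 0.22 (SE), 5.57-fold, adjusted p = 2.32e-08. Slamf6, a homotypic receptor of lymphocytes, was at 9.59, 9.14 and 9.43 in LN naive cells, against 7.55, 7.00 and 6.28 in Foxp3- CD24int thymocytes, a rise of 2.45 ± 0.29 (SE), 5.45-fold, adjusted p = 2.10e-06. Socs2 and Slamf6 were also higher in CD24lo than in CD24int thymocytes, by 1.92 ± 0.22 and 2.57 ± 0.29 (adjusted p = 3.72e-07 and 3.71e-07). Golm1, a Golgi membrane protein, Pde5a, a cyclic GMP phosphodiesterase, and Atxn1, a transcriptional regulator, rose by 2.74 ± 0.28, 2.45 ± 0.32 and 2.32 ± 0.19 (adjusted p = 2.65e-07, 8.12e-06 and 8.71e-09). Ighm, Jchain, Ms4a1 and Fcmr complete the 14 largest rises and are genes that B cells express; their values stand with the B cell markers.

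Of the genes of naive cells and quiescence, 5 of 24 measured were higher and 3 lower in LN naive cells, against 4.38% and 4.18% of all genes, with a list median of 0.23. Klf3, a Krüppel-like repressor, was at 11.27, 11.20 and 10.95 in LN naive cells, against 10.15, 9.85 and 9.60 in Foxp3- CD24int thymocytes, a rise of 1.27 ± 0.20 (SE), 2.42-fold, adjusted p = 8.84e-05. Vsir, the checkpoint receptor VISTA that is carried by resting T cells, rose by 0.67 ± 0.14 (adjusted p = 0.00216). Il7r, the interleukin 7 receptor on which naive survival depends, was at 12.55, 12.36 and 12.51 in LN naive cells, against 11.96, 11.47 and 11.40 in Foxp3- CD24int thymocytes. Its arrays did not overlap, but the difference of 0.87 ± 0.34 did not pass (adjusted p = 0.14). It passed when the compared groups were fitted alone (adjusted p = 0.00528) and, at 1.08, with the probe set of largest variance (adjusted p = 0.0248). Satb1, a chromatin organiser of thymocytes, fell by 0.61 (adjusted p = 0.00119), and Lef1, a high mobility group factor of immature and naive cells, differed by 0.00 ± 0.12 (adjusted p = 0.995).

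Of the genes for exit from the thymus and entry into lymph nodes, 2 of 17 measured passed, near the 8.56% of all genes. Both were higher in LN naive cells, and the list median was 0.11. Klf2, the factor that drives the sphingosine 1-phosphate receptor, was at 12.23, 12.46 and 11.84 in LN naive cells, against 12.12, 12.52 and 11.74 in Foxp3- CD24int thymocytes. S1pr1, the receptor for sphingosine 1-phosphate that carries thymocytes into blood, was at 9.77, 9.28 and 8.88 in LN naive cells, against 9.24, 8.79 and 8.90 in Foxp3- CD24int thymocytes. The groups of both genes overlapped, with differences of 0.05 ± 0.32 and 0.33 ± 0.23 (adjusted p = 0.965 and 0.497). S1pr4, another receptor of this lipid, rose by 0.58 ± 0.13 (adjusted p = 0.00332). Ccr7, the chemokine receptor for lymph node entry, differed by -0.08 ± 0.15 (adjusted p = 0.861), and Foxo1, which acts upstream of Klf2 and Il7r, by 0.10 ± 0.11 (adjusted p = 0.71).

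Some of these genes also differed between the thymic stages. S1pr1, Ccr7 and Foxo1 were lower in CD24lo than in CD24int thymocytes, with differences of -1.18 ± 0.23, -1.24 ± 0.15 and -0.78 ± 0.11 (adjusted p = 0.000733, 1.93e-06 and 8.84e-06), and over the egress list 1 gene was higher and 5 were lower in CD24lo cells. Klf2 was also lower there, at -0.97 ± 0.32 (adjusted p = 0.0463), but lost its call when CD24lo replicate 1 or 3 or CD24int replicate 1 or 2 was left out, with adjusted p of 0.158, 0.176, 0.102 and 0.211. This comparison uses the same CD24int arrays as the main one, so the values are given side by side only. Of all genes, 2182 (12.0%) passed between CD24lo and CD24int thymocytes, 1430 (7.86%) higher and 752 (4.13%) lower in CD24lo cells. Replicate numbers paired the arrays of these groups, and with the number as a block 3407 passed, 2107 higher and 1300 lower.

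Genes of thymic retention and medullary positioning fell where they passed, 3 of 9 measured. Ccr9, the receptor for the thymic and intestinal chemokine Ccl25, was at 8.18, 7.88 and 8.04 in LN naive cells, against 10.28, 10.26 and 10.63 in Foxp3- CD24int thymocytes, a fall of -2.36 ± 0.16 (SE), 5.13-fold, adjusted p = 1.12e-09. Plxnd1, a semaphorin receptor that guides thymocytes into the medulla, was at 5.81, 5.74 and 6.01 in LN naive cells, against 7.72, 7.41 and 7.62 in Foxp3- CD24int thymocytes, a fall of -1.74 ± 0.19 (SE), 3.33-fold, adjusted p = 5.09e-07. Both genes separated the groups by more than 1 unit on every array. Ccr8, a chemokine receptor found on late single-positive cells, fell by 1.11 (adjusted p = 0.00683). Cd69, which antagonises S1pr1 at the surface, differed by -0.07 ± 0.27 (adjusted p = 0.937). Cxcr4, a receptor of cortical thymocytes, was 0.70 ± 0.28 higher without passing (adjusted p = 0.139), and passed without LN naive replicate 3, at 0.97 (adjusted p = 0.0448).

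Of the genes of immature single-positive thymocytes, 10 of 19 measured fell and 1 rose, with a list median of -0.78, and 7 to 10 were lower when 1 array was left out. Sox4, a high mobility group factor of immature thymocytes, was at 9.44, 9.74 and 10.05 in LN naive cells, against 11.60, 11.67 and 11.99 in Foxp3- CD24int thymocytes, a fall of -2.01 ± 0.23 (SE), 4.03-fold, adjusted p = 8.87e-07. Chl1, a cell adhesion molecule close to L1, was at 3.49, 3.51 and 3.87 in LN naive cells, all dim, against 6.55, 6.00 and 6.92 in Foxp3- CD24int thymocytes, a fall of -2.86 ± 0.26 (SE), 7.28-fold, adjusted p = 3.49e-08. In neither gene did any array of 1 group reach the other. Cd81, a tetraspanin, and Id3, an inhibitor of E proteins, fell by 1.21 and 1.56 (adjusted p = 0.00038 and 7.49e-06). Among the transcription factors of the T lineage, 13 of 32 measured fell and 1 rose. Hivep3, a zinc finger factor also known as Schnurri-3, was at 8.10, 8.40 and 8.10 in LN naive cells, against 10.33, 10.13 and 10.32 in Foxp3- CD24int thymocytes, a fall of -2.06 ± 0.15 (SE), 4.17-fold, adjusted p = 1.44e-09. Ikzf4, the Ikaros family member Eos, fell by 1.57 (adjusted p = 2.77e-09). Gata3, needed for CD4 commitment, fell by 0.51 (adjusted p = 0.00165). Zbtb7b, the CD4 lineage factor ThPOK, and Bcl11b, which holds T cell identity, differed by -0.02 ± 0.12 and -0.14 ± 0.13, neither past the threshold (adjusted p = 0.962 and 0.666).

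Genes induced by T cell receptor signalling were lower in 11 of 28 measured and higher in 4, with a list median of -0.35. Nr4a1, the orphan receptor Nur77 that reports receptor signal strength, was at 9.41, 9.68 and 9.14 in LN naive cells, against 10.77, 10.93 and 10.73 in Foxp3- CD24int thymocytes, a fall of -1.40 ± 0.15 (SE), 2.64-fold, adjusted p = 6.45e-07. Its relatives Nr4a2 and Nr4a3 fell by 1.52 and 1.19 (adjusted p = 0.00154 and 5.77e-07), and the early growth response factors Egr1 and Egr2 by 0.73 and 0.88 (adjusted p = 0.00267 and 0.000487). Tnfrsf4, the costimulatory receptor OX40, was at 7.61, 7.66 and 7.63 in LN naive cells, against 9.29, 9.57 and 9.87 in Foxp3- CD24int thymocytes, a fall of -1.94 ± 0.18 (SE), 3.83-fold, adjusted p = 4.45e-08. For Nr4a1 and Tnfrsf4 the groups did not overlap. Tnfrsf9, Tnfrsf18, Irf4 and Pdcd1, which encode the receptors 4-1BB and GITR, a factor of activated cells and the inhibitory receptor PD-1, fell by 1.28, 0.63, 1.18 and 0.94 (adjusted p = 0.00258, 0.00443, 1.68e-05 and 0.00446). The 3 probe sets of Tnfrsf9 ran from -1.29 to 0.10, and with the probe set of largest variance it lost its call (adjusted p = 0.119). Cd83, a surface protein that single-positive thymocytes gain on selection and activated cells carry, rose by 0.99 ± 0.19 (adjusted p = 0.0012). A list of immediate early and dissociation stress genes, a partial measure of handling, had 0 of 17 past the threshold in limma's test (6 at an unadjusted p under 0.05), with a median of -0.05. That list does not hold the Nr4a and Egr genes named above, and whether handling bears on their falls was not tested. Of the genes of the regulatory T cell list, some of which receptor signalling also induces, 8 of 16 fell and 2 rose, and Nrp1, the neuropilin of thymic Tregs, rose by 1.78 ± 0.23 (adjusted p = 5.79e-06).

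The interferon response genes were lower as a group in LN naive cells. Of 31 measured, 19 fell and none rose, against 4.18% of all genes that were lower, and the list median was -0.75. When 1 array was left out, 18 or 19 were lower. The mean log2 level of the list was 8.58, 8.58 and 8.45 in LN naive arrays, against 9.33, 9.18 and 9.32 in Foxp3- CD24int arrays, with no overlap. Ifit1, which binds viral RNA that lacks cap methylation, was at 7.82, 7.73 and 7.51 in LN naive cells, against 9.37, 9.16 and 9.23 in Foxp3- CD24int thymocytes, a fall of -1.57 ± 0.14 (SE), 2.96-fold, adjusted p = 4.45e-08. Oas2, an oligoadenylate synthetase, was at 8.12, 8.06 and 7.84 in LN naive cells, against 10.30, 9.94 and 9.69 in Foxp3- CD24int thymocytes, a fall of -1.97 ± 0.20 (SE), 3.91-fold, adjusted p = 2.64e-07. Dhx58, the RNA sensor LGP2, was at 7.17, 7.22 and 6.88 in LN naive cells, against 8.88, 8.62 and 8.61 in Foxp3- CD24int thymocytes, a fall of -1.62 ± 0.14 (SE), 3.06-fold, adjusted p = 1.57e-08. The 3 genes thus had no LN naive array that reached any CD24int array.

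Rsad2, the antiviral enzyme viperin, was at 7.05, 6.69 and 6.80 in LN naive cells, against 8.47, 8.17 and 8.22 in Foxp3- CD24int thymocytes, a fall of -1.44 ± 0.18 (SE), 2.71-fold, adjusted p = 4.14e-06. Ifih1, the RNA sensor MDA5, Usp18, which restrains interferon receptor signalling, Irf7, an amplifying factor, and Isg20, an exonuclease, fell by 1.06, 1.37, 0.96 and 1.23 (adjusted p = 5.98e-07, 6.19e-07, 1.12e-05 and 5.54e-07). Among those that did not pass were Irf1, a transcription factor, Tap1, a peptide transporter, and Gbp2, a guanylate-binding protein, which differed by 0.10 ± 0.12, 0.00 ± 0.13 and -0.19 ± 0.12 (adjusted p = 0.747, 0.994 and 0.412). Ifit2, a relative of Ifit1, differed by -0.01 ± 0.12 (adjusted p = 0.987).

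The promoters of 3 interferon genes are shown because letters of the interferon-stimulated response element, bound by the factors that type I interferon activates, occur in each. They come from RefSeq on build GRCm38.p6 and run from 250 bases before to 50 bases after the gene's start, on the gene's own strand, with matches to the element in capitals. Ifit1 lies at chr19:34640639-34640938, plus strand, Ifih1 at chr2:62646206-62646505, minus strand, and Rsad2 at chr12:26456403-26456702, minus strand.
Ifit1: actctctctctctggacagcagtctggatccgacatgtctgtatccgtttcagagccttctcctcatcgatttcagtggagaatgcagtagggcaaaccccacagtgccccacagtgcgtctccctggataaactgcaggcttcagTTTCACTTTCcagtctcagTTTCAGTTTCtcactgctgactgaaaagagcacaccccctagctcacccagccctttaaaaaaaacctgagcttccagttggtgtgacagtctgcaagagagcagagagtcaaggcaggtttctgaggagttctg
Ifih1: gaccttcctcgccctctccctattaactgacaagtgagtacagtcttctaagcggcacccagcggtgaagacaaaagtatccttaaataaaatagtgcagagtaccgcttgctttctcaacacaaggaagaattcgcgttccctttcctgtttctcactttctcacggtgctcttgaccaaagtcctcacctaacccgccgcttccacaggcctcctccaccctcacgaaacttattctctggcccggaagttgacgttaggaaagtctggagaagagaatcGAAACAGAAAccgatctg
Rsad2: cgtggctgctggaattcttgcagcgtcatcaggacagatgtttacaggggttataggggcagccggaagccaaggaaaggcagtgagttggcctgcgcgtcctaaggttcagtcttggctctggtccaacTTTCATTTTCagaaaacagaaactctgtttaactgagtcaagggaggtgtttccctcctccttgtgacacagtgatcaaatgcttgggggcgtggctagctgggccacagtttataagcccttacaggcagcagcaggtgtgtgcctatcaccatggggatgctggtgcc
The letters searched, on both strands, were GAAA and GAAA with any 2 bases between them, and the matches start at -104 and -85 in Ifit1, at 32 in Ifih1 and at -120 in Rsad2, counted from the gene's start. Of the measured interferon genes, 24 had a promoter in the table and 13 (54.2%) held these letters in this window, against 1079 of 27025 genes (3.99%) over the whole table. Of the 19 interferon genes that fell, 13 had a promoter in the table, and 7 of these 13 held the letters. Of the 12 that did not pass, 11 had one, and 6 of these 11 held them. Among genes with a promoter, the share was thus about the same in those that fell and in those that did not. Oas2, Dhx58 and Usp18 are among the genes that fell without a promoter in the table, and they are not counted.

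**Figure D2:**
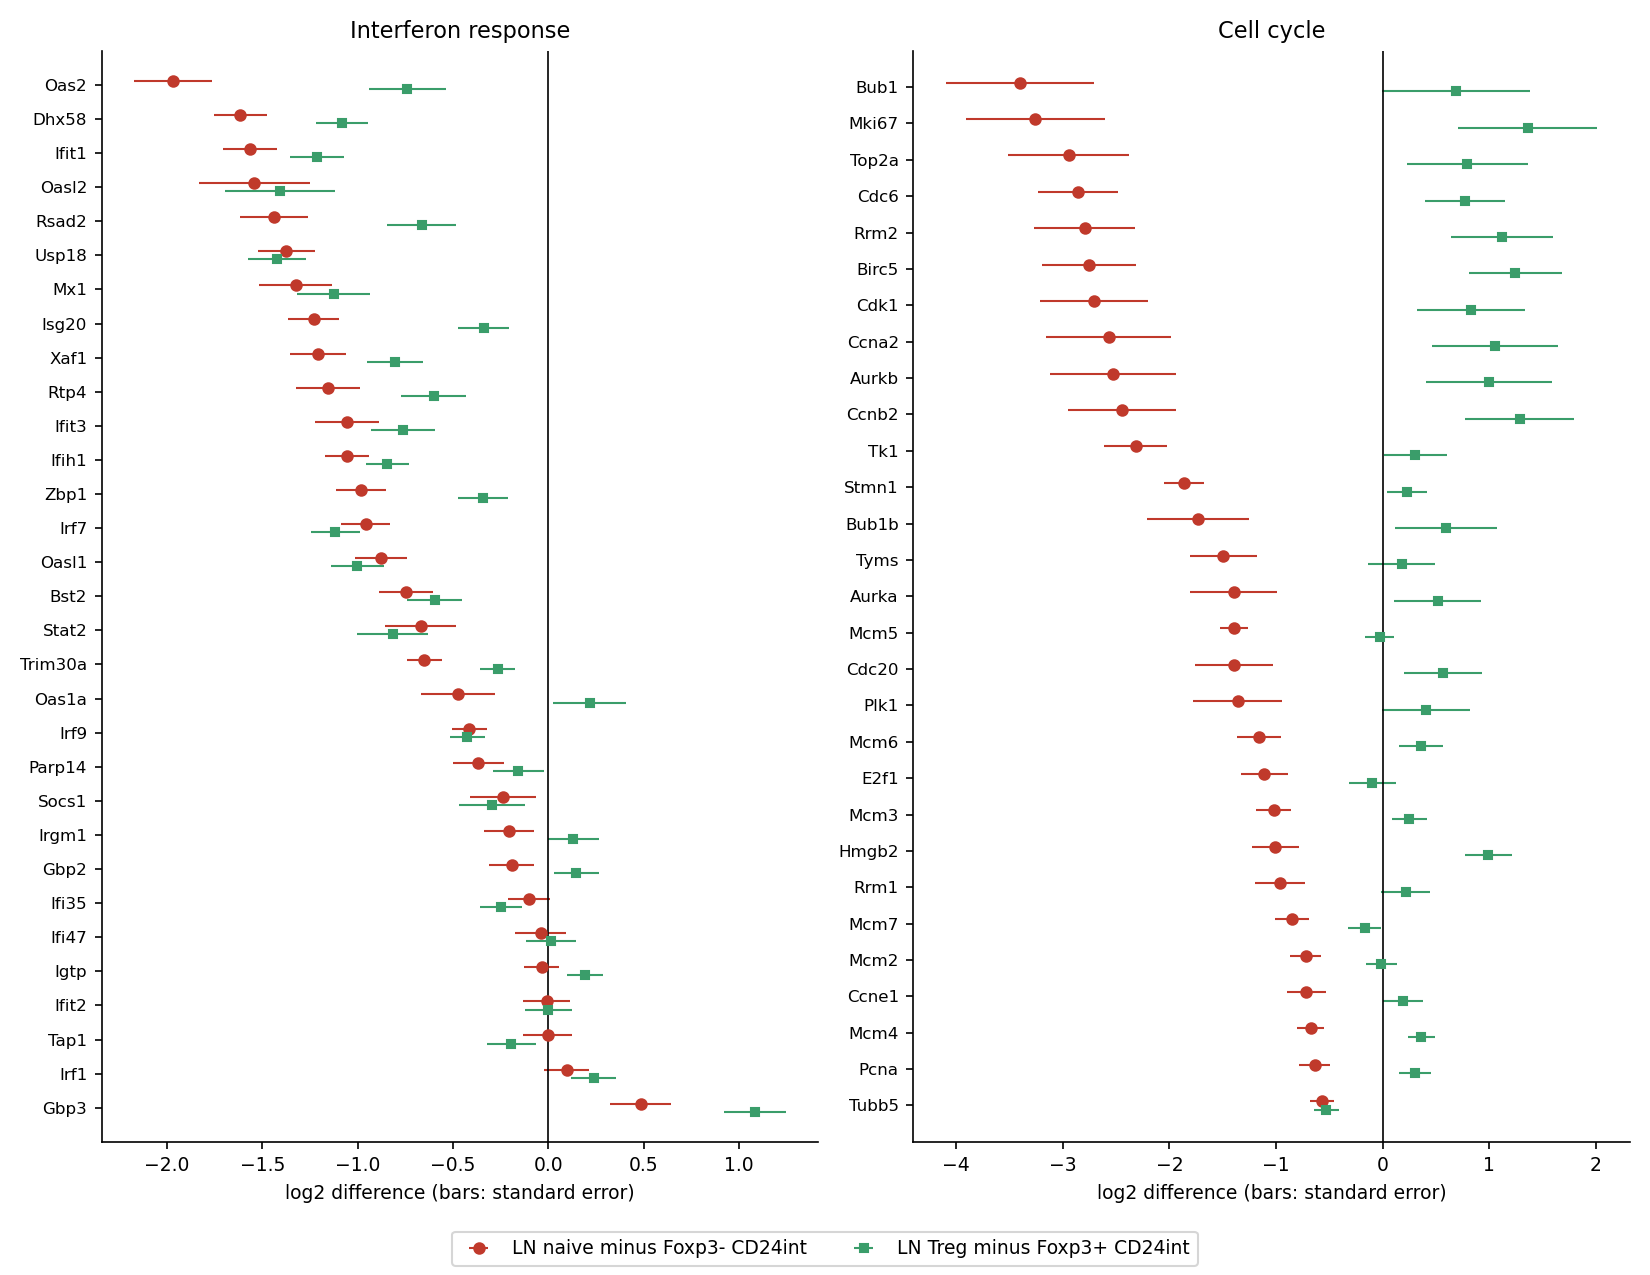
Differences of log2 intensity ± SE (horizontal axis) for the interferon and the cell cycle genes; red circles give LN naive minus Foxp3- CD24int, green squares LN Treg minus Foxp3+ CD24int. Interferon genes lie left of 0 in both steps for most members, whereas cell cycle genes lie left of 0 in the naive step and mostly right of 0 in the Treg step.

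All 29 measured cell cycle genes were lower in LN naive cells, with a list median of -1.40, and 23 to 29 were lower when 1 array was left out. The mean log2 level of the list was 7.62, 7.06 and 7.35 in LN naive arrays, against 9.50, 8.81 and 8.96 in Foxp3- CD24int arrays. Foxp3- CD24int thymocytes had the highest mean of the 9 groups, at 9.09 ± 0.36 (SD). Foxp3- CD24hi and CD24lo thymocytes were at 8.39 ± 0.39 and 8.64 ± 0.28, so the size of the fall depends on the thymic group chosen. In whole sorted populations, fewer dividing cells and less of these transcripts per cell cannot be told apart. Mki67, the proliferation antigen, was at 7.70, 6.57 and 6.96 in LN naive cells, against 11.25, 9.86 and 9.89 in Foxp3- CD24int thymocytes, a fall of -3.26 ± 0.65 (SE), 9.56-fold, adjusted p = 0.00144. Top2a, the topoisomerase that untangles chromosomes, was at 8.12, 7.05 and 7.62 in LN naive cells, against 11.26, 10.19 and 10.17 in Foxp3- CD24int thymocytes, a fall of -2.94 ± 0.57 (SE), 7.69-fold, adjusted p = 0.00102. Replicate 1 was the highest array of both groups for both genes, and the groups did not overlap. Bub1, a spindle checkpoint kinase, was at 5.75, 4.36 and 4.43 in LN naive cells, against 9.23, 7.68 and 7.83 in Foxp3- CD24int thymocytes, a fall of -3.40 ± 0.70 (SE), 10.5-fold, adjusted p = 0.00186. Cdk1, the kinase that starts mitosis, was at 5.82, 4.75 and 5.41 in LN naive cells, against 8.68, 7.69 and 7.73 in Foxp3- CD24int thymocytes, a fall of -2.71 ± 0.51 (SE), 6.53-fold, adjusted p = 0.000739. The arrays of a group lay closer together for Mcm5 than for these 4 genes. Mcm5, a subunit of the replicative helicase, was at 9.33, 9.21 and 9.12 in LN naive cells, against 10.63, 10.53 and 10.69 in Foxp3- CD24int thymocytes, a fall of -1.39 ± 0.13 (SE), 2.63-fold, adjusted p = 1.15e-07.

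Further division genes among the 14 largest falls were Esco2, a cohesin acetyltransferase, Depdc1a, a mitotic regulator, Ncapg, a condensin subunit, Cep55, of cytokinesis, Nusap1, of the spindle, Rrm2, of ribonucleotide reductase, Cdc6, of origin licensing, Pclaf, a partner of the sliding clamp, Chek1, a checkpoint kinase, and Uhrf1, which maintains DNA methylation. Only Chl1 of these 14 is not a division gene by its known role. Esco2 fell by 3.40, Chek1 by 2.94 and Uhrf1 by 2.86 (adjusted p = 0.000262, 1.09e-08 and 4.36e-07). Nusap1 fell by 2.81 (adjusted p = 0.00821) and lost its call without CD24int replicate 1, at -2.37 (adjusted p = 0.0594), and without LN naive replicate 2, at -2.52 (adjusted p = 0.0534). Tk1, thymidine kinase, and Birc5, the survivin of the chromosomal passenger complex, fell by 2.32 and 2.75 (adjusted p = 5.78e-06 and 0.000111). Smaller falls were measured in Tubb5, a tubulin, at -0.57 ± 0.11, Mcm2, a helicase subunit, at -0.72 ± 0.14, and Hmgb2, a chromatin protein, at -1.01 ± 0.22 (adjusted p = 0.00165, 0.00154 and 0.00313).

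The promoters of Cdk1 and Top2a are shown because they hold letters of the cell cycle homology region, bound by the complex that represses mitotic genes in resting cells, and Cdk1 also those of an E2F element. They are from the same table and build, with matches in capitals. Cdk1 lies at chr10:69352863-69353162, minus strand, and Top2a at chr11:99024140-99024439, minus strand.
Cdk1: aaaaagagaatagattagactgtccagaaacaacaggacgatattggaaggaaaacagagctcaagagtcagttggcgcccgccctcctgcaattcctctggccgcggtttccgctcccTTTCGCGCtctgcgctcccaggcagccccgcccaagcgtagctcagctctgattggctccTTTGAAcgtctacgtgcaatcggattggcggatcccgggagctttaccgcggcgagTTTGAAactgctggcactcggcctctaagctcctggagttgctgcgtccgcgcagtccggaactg
Top2a: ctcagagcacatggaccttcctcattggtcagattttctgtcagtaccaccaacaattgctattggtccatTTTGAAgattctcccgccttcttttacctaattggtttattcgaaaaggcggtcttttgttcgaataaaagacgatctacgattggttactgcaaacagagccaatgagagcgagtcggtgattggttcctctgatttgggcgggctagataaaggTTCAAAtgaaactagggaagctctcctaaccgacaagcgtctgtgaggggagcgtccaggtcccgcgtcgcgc
The letters searched, on both strands, were TTTGAA for the homology region, with matches at -71 and -15 in Cdk1 and at -179 and -23 in Top2a, and TTTGGCGC or TTTCGCGC for E2F, with a match at -131 in Cdk1. Of 25 measured cell cycle genes with a promoter in the table, 10 (40%) held TTTGAA, against 5466 of 27025 genes (20.2%), and 5 (20%) held the E2F letters, against 251 genes (0.929%). No match shown overlaps another. The 5 with the E2F letters were Cdk1, Mcm3, Mcm5, Mcm6 and Mcm7.

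**Figure D3:**
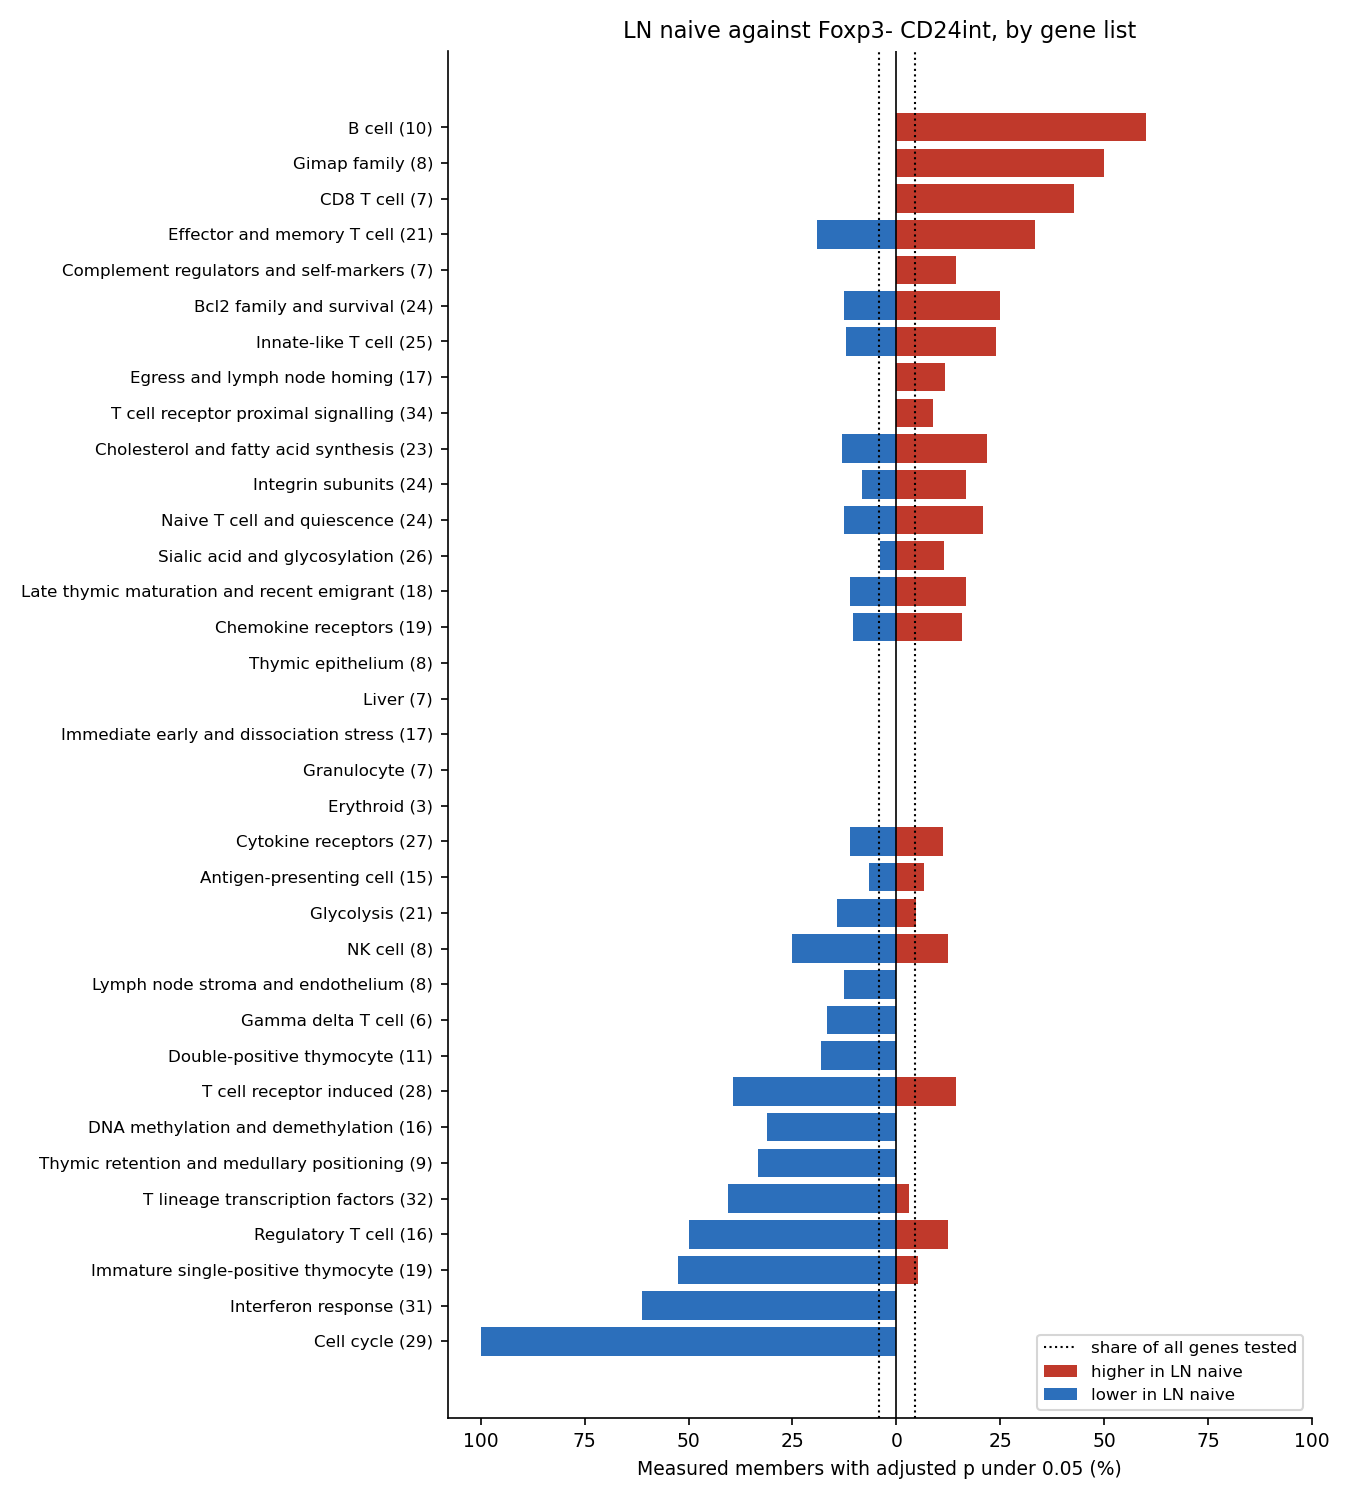
Percent of the measured members of each gene list (horizontal axis) that were called higher (right) or lower (left) in LN naive cells than in Foxp3- CD24int thymocytes; dotted lines mark the 4.38% and 4.18% of all genes. Cell cycle, interferon and immature single-positive lists reach furthest to the lower side, and the B cell and Gimap lists to the higher side.

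Smaller families rose in part. Of the 8 Gimap genes, GTPases of the immunity-associated protein family that support lymphocyte survival, 4 rose and none fell, and the list median was 0.50. Gimap7 was at 10.93, 10.77 and 10.91 in LN naive cells, against 9.73, 9.87 and 9.97 in Foxp3- CD24int thymocytes, a rise of 1.01 ± 0.14 (SE), 2.02-fold, adjusted p = 2.11e-05. Gimap1 and Gimap5 rose by 0.59 ± 0.12 and 0.66 ± 0.12 (adjusted p = 0.00216 and 0.000465). Gimap3 rose by 0.98 ± 0.25 (adjusted p = 0.0138) and lost its call without LN naive replicate 1, at 0.77 (adjusted p = 0.110), and without CD24int replicate 2 or 3 (adjusted p = 0.0622 and 0.0719). Gimap4 differed by 0.09 ± 0.12 (adjusted p = 0.758). Gimap7 was 1.34 lower in CD24lo than in CD24int thymocytes (adjusted p = 1.36e-07), and 6 of the 8 were lower there.

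Of 19 chemokine receptor genes measured, 3 were higher and 2 lower in LN naive cells, against 4.38% and 4.18% of all genes, with a list median of 0.10. The lower ones were Ccr9 and Ccr8. Cxcr5, the receptor for entry into B cell follicles, rose by 1.82 ± 0.26 (adjusted p = 2.29e-05). Cxcr3, a receptor of type 1 effector and innate-like cells, was at 8.76, 8.63 and 8.15 in LN naive cells, against 6.79, 6.98 and 5.30 in Foxp3- CD24int thymocytes, a rise of 2.16 ± 0.38 (SE), 4.47-fold, adjusted p = 0.000328. Cxcr6, a receptor of tissue-resident and natural killer T cells, was at 8.52, 8.37 and 7.93 in LN naive cells, against 6.81, 7.02 and 4.93 in Foxp3- CD24int thymocytes. CD24int replicate 3 was the lowest array of both genes, and the Cxcr6 rise of 2.02 ± 0.50 (SE), 4.05-fold, adjusted p = 0.00939, became 1.36 without it (adjusted p = 0.106). Itga7, an integrin chain that binds laminin, and Il10rb, a chain shared by interleukin 10 family and type III interferon receptors, rose by 0.99 ± 0.15 and 0.99 ± 0.13 (adjusted p = 5.70e-05 and 5.40e-06). The next 2 lists also stand against these shares of all genes. Of 24 integrin subunit genes 4 were higher and 2 lower, with a median of 0.09, and of 26 genes of sialic acid and glycosylation 3 were higher and 1 lower, with a median of 0.03. In that list, the sialyltransferases St8sia4 and St8sia6 rose by 0.84 ± 0.17 and 0.75 ± 0.14 (adjusted p = 0.00128 and 0.000532).

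Genes of lipid synthesis moved in both directions, with 5 of 23 higher and 3 lower, against 4.38% and 4.18% of all genes, and a list median of 0.35. Sqle, squalene epoxidase of cholesterol synthesis, was at 7.22, 7.38 and 7.01 in LN naive cells, against 5.02, 5.51 and 5.78 in Foxp3- CD24int thymocytes, a rise of 1.76 ± 0.22 (SE), 3.39-fold, adjusted p = 4.34e-06. Insig1, which senses sterols, Cyp51, a sterol demethylase, and Srebf2, the master factor of the pathway, rose by 1.52 ± 0.23, 1.01 ± 0.21 and 0.62 ± 0.14 (adjusted p = 5.05e-05, 0.00213 and 0.00496). Scd2, a fatty acid desaturase, was at 8.13, 8.33 and 8.64 in LN naive cells, against 10.88, 10.55 and 10.92 in Foxp3- CD24int thymocytes, a fall of -2.42 ± 0.14 (SE), 5.36-fold, adjusted p = 1.39e-10, with no overlap between the groups. Abcg1, a sterol exporter, fell by 0.78 (adjusted p = 2.60e-05). Among enzymes of DNA methylation and demethylation 5 of 16 fell and none rose, including Dnmt3a, a de novo methyltransferase, at -0.90 ± 0.10, Tet1, a methylcytosine oxidase, at -1.29 ± 0.19, and Mbd4, a repair glycosylase, at -0.85 ± 0.16 (adjusted p = 6.54e-07, 3.76e-05 and 0.00059). Uhrf1, which also counts as a division gene, is a member of that list. Of the Bcl2 family and survival genes 6 of 24 rose and 3 fell, against the same shares of all genes. Fasl, the death ligand, rose by 2.08 ± 0.40 and Pim1, a survival kinase, by 0.62 ± 0.13 (adjusted p = 0.0009 and 0.00288), while Bcl2 and Mcl1, which hold off apoptosis, differed by 0.08 ± 0.14 and -0.01 ± 0.10 (adjusted p = 0.832 and 0.979).

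Markers of other cell types were examined in the same arrays. The B cell list moved with the tissue: 6 of 10 measured members rose and none fell, the same in each fit that left out 1 array, and the summed intensity was 2759 to 2985 in LN naive arrays, against 498 to 633 in Foxp3- CD24int arrays. The mean log2 level was 5.56, 5.92 and 6.01 in LN naive arrays, against 4.81, 4.81 and 4.66 in Foxp3- CD24int arrays. Ms4a1, the B cell surface protein CD20, was at 5.68, 6.81 and 7.36 in LN naive cells, against 4.21, 4.29 and 4.28 in Foxp3- CD24int thymocytes, all 3 of them dim, a rise of 2.35 ± 0.29 (SE), 5.11-fold, adjusted p = 3.40e-06. Ighm, the immunoglobulin mu chain, and Jchain, which joins secreted immunoglobulin, rose by 2.84 ± 0.28 and 2.38 ± 0.54, and Fcmr, the receptor for IgM, by 2.35 ± 0.24 (adjusted p = 1.21e-07, 0.00463 and 2.68e-07). Cd79b, of the B cell receptor, and Cd22, its inhibitory partner, rose by 2.04 ± 0.34 and 1.31 ± 0.15 (adjusted p = 0.00017 and 1.50e-06), whereas Pax5 and Ebf1, the transcription factors that define the lineage, differed by -0.03 ± 0.15 and 0.02 ± 0.11 and averaged 4.61 ± 0.04 and 3.82 ± 0.08 in LN naive cells, against 4.64 ± 0.26 and 3.80 ± 0.27 in Foxp3- CD24int thymocytes (SD, n = 3 each; adjusted p = 0.959 and 0.957). LN Treg arrays held the B cell list at 5.85, 6.03 and 6.15, above Foxp3+ CD24int arrays at 5.01, 4.93 and 4.85. The part of B cell RNA in the rises of Cxcr5, Fcmr, Ighm and Jchain was not tested.

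Granulocyte markers spread widely between the LN naive arrays. Their mean log2 level was 4.70, 5.27 and 6.85 in LN naive arrays, against 4.63, 5.13 and 4.88 in Foxp3- CD24int arrays, with summed intensities of 194 to 1400 against 188 to 271, and 0 of 7 passed in limma's test (0 at an unadjusted p under 0.05). S100a8, a calcium-binding protein of neutrophils, was at 4.34, 6.43 and 8.69 in LN naive cells, against 4.74, 5.89 and 5.69 in Foxp3- CD24int thymocytes, so LN naive replicate 3 stood apart. Its difference of 1.05 ± 0.90 did not pass (adjusted p = 0.612) and was -0.06 without that array. LN Treg replicate 3 was also the highest of its group, with list levels of 4.39, 5.28 and 6.75.

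Innate-like T cells, such as natural killer T cells, mature in the thymus and can fall in a CD24lo Foxp3- gate. Their markers averaged 6.69, 6.53 and 6.25 in LN naive arrays, against 6.46, 6.39 and 5.37 in Foxp3- CD24int arrays (summed intensities of 5564 to 7037 and 3583 to 4844), while Foxp3- CD24lo arrays held 8.51, 8.33 and 8.40. Between LN naive and CD24int cells 6 of 25 were higher and 3 lower, with a median of 0.14, and the arrays of the groups did not overlap for 10 members higher and 3 lower, against 23.1% of all genes. Without CD24int replicate 3, the lowest array of its group, 4 were higher and 2 lower, with a median of -0.02. Between CD24lo and CD24int thymocytes 21 of 25 were higher and 2 lower, with a median of 2.55, and 6 of 6 gamma delta T cell markers were higher. Tbx21, the factor T-bet, was at 7.33, 7.05 and 6.71 in LN naive cells, against 5.54, 5.27 and 4.00 in Foxp3- CD24int thymocytes, a rise of 2.09 ± 0.26 (SE), 4.26-fold, adjusted p = 3.19e-06. Ccl5, a chemokine of effector cells, was at 9.28, 9.27 and 8.41 in LN naive cells, against 7.32, 7.50 and 5.91 in Foxp3- CD24int thymocytes, a rise of 2.08 ± 0.30 (SE), 4.21-fold, adjusted p = 3.03e-05. In both genes CD24int replicate 3 again lay lowest.

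Zbtb16, the factor PLZF of innate-like cells, Klrk1, the receptor NKG2D, and Il4 differed by -0.20 ± 0.39, 0.02 ± 0.22 and 0.14 ± 0.38 between LN naive and CD24int cells (adjusted p = 0.857, 0.978 and 0.906), and were 4.00 ± 0.39, 2.37 ± 0.22 and 4.55 ± 0.38 higher in CD24lo than in CD24int thymocytes (adjusted p = 3.93e-08, 1.49e-08 and 2.59e-09). The largest differences of CD24lo over CD24int thymocytes among genes without overlap were Prg4, a lubricating proteoglycan, at 4.85 ± 0.22, Klrb1a, a killer cell lectin-like receptor, at 4.85 ± 0.17, Klra5, a Ly49 receptor, at 4.73 ± 0.47, and Trgv4, a gamma chain segment, at 4.65 ± 0.41. The largest the other way were Cd24a at -2.20 ± 0.42, Tubb2b, a tubulin, at -2.17 ± 0.35, Tmcc3 at -2.01 ± 0.17 and Amigo2, an adhesion protein, at -1.95 ± 0.25. The mean level of the innate-like list was higher in all 3 CD24lo arrays than in any array of the other 2 groups.

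**Figure D4:**
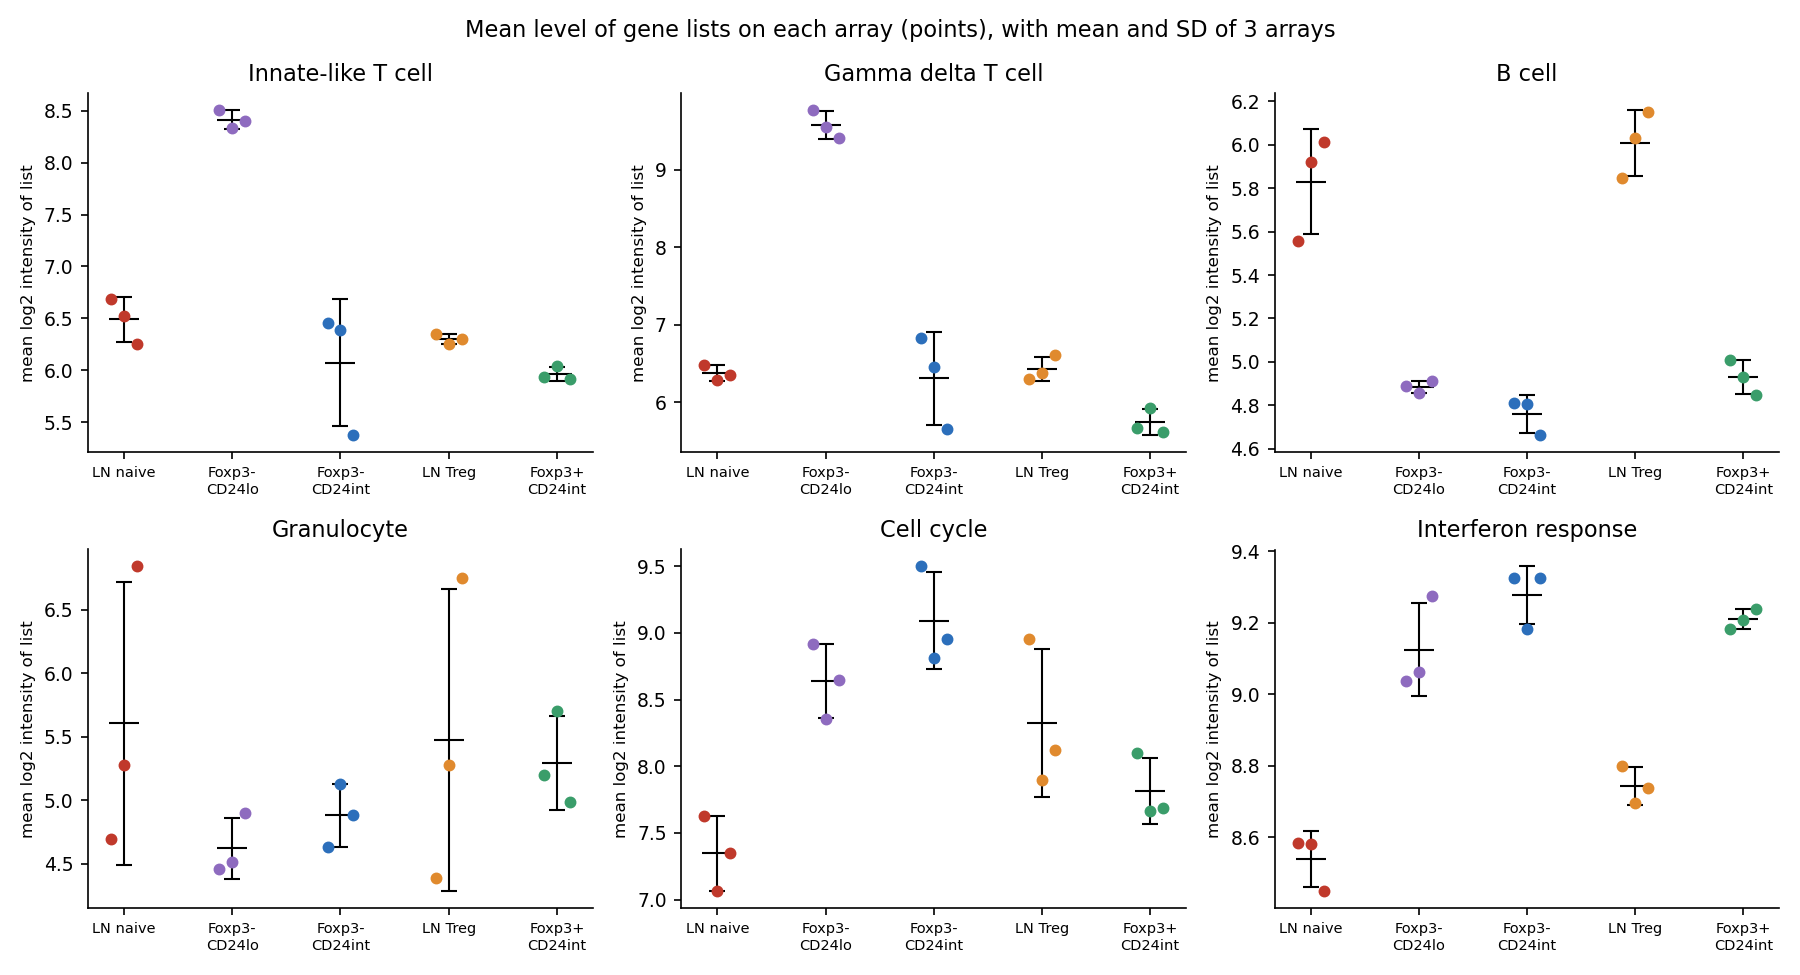
Mean log2 intensity (vertical axis) of 6 gene lists in each array, by group; each point is 1 array. B cell markers are higher in lymph node groups, innate-like and gamma delta markers in Foxp3- CD24lo arrays, and granulocyte markers spread by replicate.

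Effector and memory genes were higher in 7 of 21 and lower in 4, with a list median of 0.59. Among the lower ones, Anxa2, another annexin, depended on the probe set: its 3 probe sets ran from -0.96 to 0.54, and 1 passed in the opposite direction. It missed the threshold without LN naive replicate 2, at -0.67 (adjusted p = 0.0524), and as the mean of its probe sets, at -0.13 (adjusted p = 0.611). Anxa1, a phospholipid-binding annexin, and Ahnak, a large scaffold protein, rose by 1.62 ± 0.20 and 1.48 ± 0.27, and Prdm1, the factor Blimp-1, by 1.18 ± 0.25 (adjusted p = 4.90e-06, 0.000557 and 0.00272). Vim, an intermediate filament protein, Lgals1, a galectin, and Gzmb, a cytotoxic granule protease, fell by 0.99, 0.63 and 1.46 (adjusted p = 1.42e-05, 0.00457 and 0.00419). Of the markers of CD8 T cells, 3 of 7 rose and none fell. Gzmk, a granzyme, and Crtam, an adhesion receptor, rose by 1.37 ± 0.23 and 1.04 ± 0.19 (adjusted p = 0.000179 and 0.000557), and Cd8a did not pass. Markers of thymic epithelium and erythroid cells had 0 of 8 and 0 of 3 past the threshold in limma's test, and liver markers 0 of 7 (1, 0 and 0 at an unadjusted p under 0.05). The remaining lists are given beside the 8.56% of all genes that passed. Of 34 genes of proximal T cell receptor signalling 3 rose and none fell, late thymic maturation and recent emigrant genes had 3 higher and 2 lower of 18, complement regulators and self-markers 1 higher and 0 lower of 7, gamma delta T cell markers 0 higher and 1 lower of 6, cytokine receptors had 3 higher and 3 lower of 27, glycolysis genes 1 higher and 3 lower of 21, double-positive thymocyte genes 0 higher and 2 lower of 11, NK cell markers 1 higher and 2 lower of 8, antigen-presenting cell markers 1 higher and 1 lower of 15, and lymph node stroma markers 0 higher and 1 lower of 8.

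The same step was then taken in the Treg class, LN Tregs against Foxp3+ CD24int thymocytes, on 6 arrays that the naive comparison does not use. There 1751 genes (9.62%) passed, 983 (5.40%) higher and 768 (4.22%) lower in LN Tregs. Replicate numbers paired these arrays, and with the number as a block 2802 passed, 1510 higher and 1292 lower. The 2 steps shared 632 called genes, 40.6% of the naive and 36.1% of the Treg calls, of which 592 ran the same way, 327 higher and 265 lower in lymph node. Across all genes the differences of the 2 steps correlated at r = 0.34, a description only, since genes are not replicates. The difference between the steps, naive minus Treg, passed for 661 genes (3.63%), 237 (1.30%) positive and 424 (2.33%) negative.

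**Figure D5:**
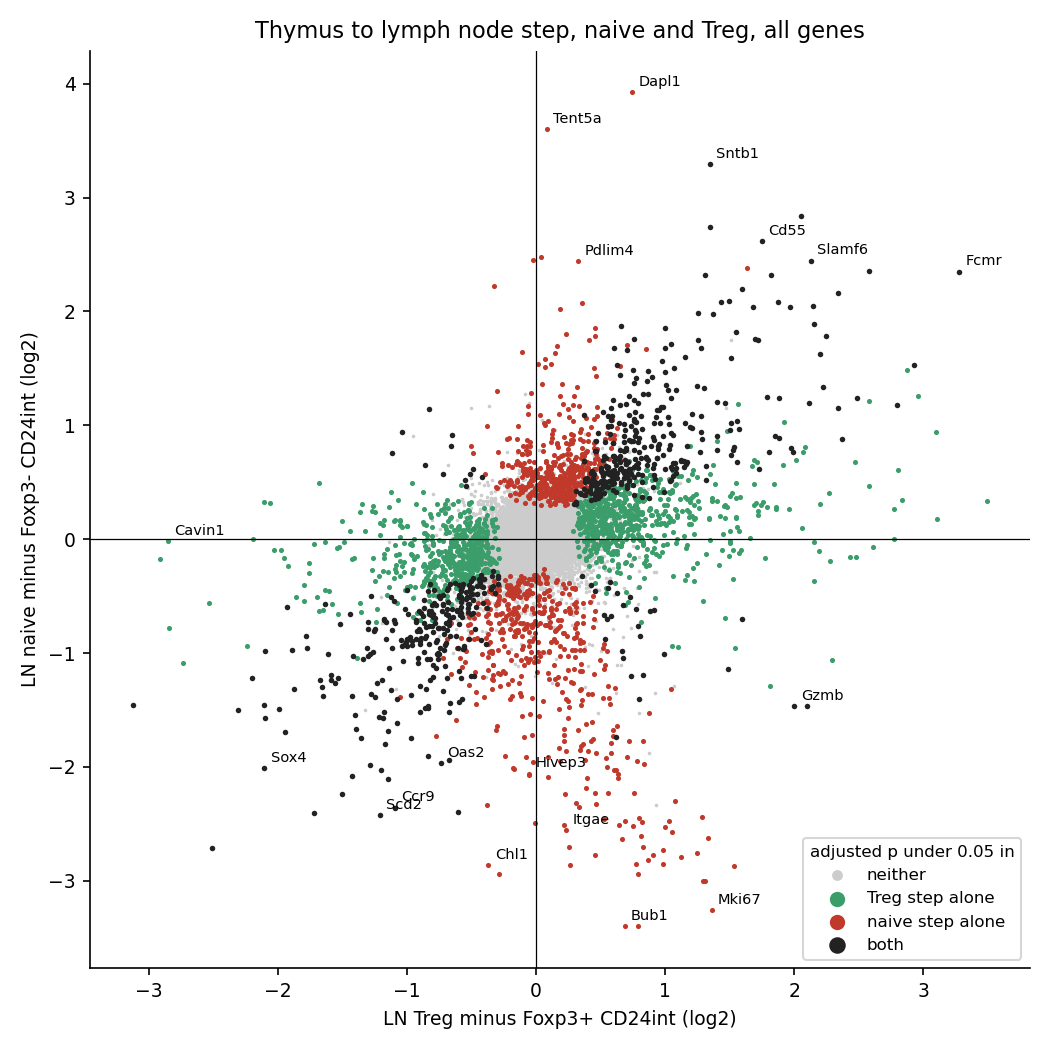
Log2 difference of the naive step, LN naive minus Foxp3- CD24int (vertical axis), against the Treg step, LN Treg minus Foxp3+ CD24int (horizontal axis), 1 point a gene. Colours mark genes called in neither step, in the Treg step alone, in the naive step alone or in both. Of the labelled genes, Oas2 lies where both differences are negative. Mki67 and Bub1 lie where the naive difference is negative and the Treg difference positive.

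Ccr9, Sox4 and many interferon genes fell in both steps. Ccr9 fell by 1.09 and Sox4 by 2.11 in the Treg step (adjusted p = 3.01e-05 and 3.77e-07), and Ifit1, Usp18 and Dhx58 by 1.21, 1.42 and 1.08 (adjusted p = 1.60e-06, 3.05e-07 and 5.19e-06). Of the 31 interferon genes, 16 fell and 1 rose in the Treg step, and 2 differed between the steps, Oas2 and Isg20, both with the larger fall in the naive step. Cd55 and Gimap7 rose by 1.75 ± 0.23 and 1.03 ± 0.14 in the Treg step (adjusted p = 6.18e-06 and 1.38e-05).

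Other genes differed between the steps. Dapl1, Pdlim4 and Tent5a differed by 0.75 ± 0.31, 0.33 ± 0.23 and 0.08 ± 0.26 between LN Tregs and Foxp3+ CD24int thymocytes (adjusted p = 0.163, 0.515 and 0.924), and the naive minus Treg differences were 3.18 ± 0.44, 2.12 ± 0.33 and 3.52 ± 0.37 (adjusted p = 6.40e-05, 0.000255 and 1.81e-06). Itgae and Hivep3 had the lower value in the naive step, with naive minus Treg differences of -2.79 ± 0.60 and -2.01 ± 0.21 (adjusted p = 0.00599 and 1.81e-06). Plxnd1 was 0.62 ± 0.19 in the Treg step (adjusted p = 0.0337), a call lost without LN Treg replicate 1 or 3 or Foxp3+ CD24int replicate 2 or 3 (adjusted p of 0.0902 to 0.188), and its difference between the steps was -2.35 ± 0.26 (adjusted p = 4.82e-06). Of the 29 cell cycle genes, 1 rose and 1 fell in the Treg step, and 21 differed between the steps, all with the lower value in the naive step. Mki67 was 1.36 ± 0.65 in the Treg step, which did not pass (adjusted p = 0.245), and its difference between the steps was -4.62 ± 0.92 (adjusted p = 0.00308). Cell cycle levels were 8.95, 7.90 and 8.12 in LN Treg arrays, against 8.10, 7.66 and 7.68 in Foxp3+ CD24int arrays. Cavin1, a caveola coat protein, and Scin, an actin-severing protein, differed by -0.02 ± 0.26 and -0.17 ± 0.27 in the naive step and -2.85 ± 0.26 and -2.92 ± 0.27 in the Treg step, differences between the steps of 2.83 ± 0.36 and 2.75 ± 0.37 (adjusted p = 2.97e-05 and 5.62e-05). Ccr7 fell by 1.55 in the Treg step (adjusted p = 1.49e-07), and its difference between the steps was 1.47 ± 0.22 (adjusted p = 0.00016).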

How the data were processed

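Gene expression was measured on Affymetrix arrays of sorted mouse T cells, with 3 arrays in each of 9 groups. Per the labels' protocols, RNA was extracted with a column kit and 50 ng was labelled by the 3′ in vitro transcription protocol. The authors deposited normalized intensity values on a linear scale; RMA is the tool named in the submitters' processing notes, its version and settings are not given in the sources used here, and the values ran from 3.55 to 24083. They were set to log2. Of 45101 probe sets, 34958 carry a single symbol, 932 several and 9211 none in the platform annotation; the brightest single-symbol probe set stood for each of 18194 genes, 9012 of which have several. Genes without such a probe set were not analysed here.

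Groups came from the labels. limma 3.58.1 in R 4.3.3 fitted 9 group means over 27 arrays, two-sided, with Benjamini-Hochberg adjustment over all genes and a threshold of 0.05. The median SE was 0.145 for a difference and 0.205 for the difference between steps; precision is limited by having 3 arrays a group. The fit was tested on simulated data, where changes of 0.5 were recovered in 25 of 67 genes, of 1 in 60 of 67 and of 2 in 66 of 66. The noise was drawn independently for each array, and only these genes were changed, fewer than the 1558 called in the data. The shares recovered may therefore differ in the data, but differences well under 1 can be missed.

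Replicate numbers, taken from the description codes, were checked as pairs by a cutoff on the lowest correlation of deviations over the numbers. It was 0.39 for CD24lo with CD24int and 0.11 for LN Treg with Foxp3+ CD24int, which count as paired, the second narrowly. It was 0.00 for LN naive with Foxp3- CD24int, which does not count, though numbers 1 and 3 gave 0.39 and 0.16. Adjusted p-values in the text are from limma's fit without the block, also for the paired groups, unless the block is named. Alternatives were the block, the compared groups alone, quantile normalization, median centring, no dim genes, other probe set rules and each array left out. Named genes are the markers, the 14 largest rises and falls without overlap, the largest of the other comparisons and up to 7 members of each list. These further genes were named after their values were seen: Klf2, S1pr1, Foxo1, Vsir, Lef1, Nr4a2, Egr1, Tnfrsf9, Tnfrsf18, Pdcd1, Cd83, Gata3, Zbtb7b, Usp18, Rsad2, Irf7, Irf1, Tap1, Gbp2, Ifit2, Cdk1, Tubb5, Hmgb2, Mcm2, Srebf2, Prdm1, Lgals1, Zbtb16, Klrk1, Il4, Ebf1 and Anxa2. The members, lists and rules were chosen with earlier results of these data known. Promoters are from RefSeq, GRCm38.p6.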

Additional observations from a re-analysis of the deposited data

Results flagged for a closer look

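The difference of LN naive cells from Foxp3- CD24int thymocytes was unlike that of LN Tregs from Foxp3+ CD24int thymocytes at 661 genes by the interaction test in limma (adjusted p under the threshold of 0.05), and the named ones follow as naive minus Treg log2 differences. Division genes had negative values: Mki67 -4.62, Cep55 -4.41, Depdc1a -4.31, Ncapg -4.30, Esco2 -4.18, Bub1 -4.09, Birc5 -4.00, Rrm2 -3.91, Pclaf -3.84, Top2a -3.74, Nusap1 -3.68, Cdc6 -3.63, Cdk1 -3.53, Uhrf1 -3.13, Chek1 -2.65, Tk1 -2.62, Stmn1 -2.09, Hmgb2 -2.00 and Mcm5 -1.37. Bub1 missed the threshold without LN naive replicate 2, CD24int replicate 1 or LN Treg replicate 1, with adjusted p of 0.0512 to 0.0674, and Nusap1 in 6 of the fits that left out 1 array, with adjusted p of 0.0649 to 0.117. Of signalling, positioning and lineage genes, negative values were measured for Itgae -2.79, Chl1 -2.49, Plxnd1 -2.35, Hivep3 -2.01, Irf4 -1.63, Ikzf2 -1.48, Id3 -1.44, Ccr9 -1.27, Tnfrsf4 -1.27, Egr2 -1.02 and Nr4a1 -0.82. The Nr4a1 difference missed the threshold in 9 of the 12 fits that left out 1 array, with adjusted p of 0.0508 to 0.117. Interferon genes gave Oas2 -1.23 and Isg20 -0.89, and Oas2 had an adjusted p of 0.0512 without LN Treg replicate 1. Effector and metabolic genes gave Gzmb -3.47, Prg4 -1.79, Prdm1 -1.62, Lgals1 -1.51, Anxa2 -1.47, Scd2 -1.21 and Vim -1.04. Positive values were measured for Tent5a 3.52, Dapl1 3.18, Cavin1 2.83, Scin 2.75, App 2.55, Pde5a 2.48, Socs2 2.44, Pdlim4 2.12, Sntb1 1.95, Ccl5 1.72, Ccr7 1.47, Nrp1 1.32, Cd83 1.14, Atxn1 1.01 and St8sia6 0.86. App missed it without CD24int replicate 3, with an adjusted p of 0.0522, and Ccl5, Nrp1, Cd83 and Atxn1 each missed it in 3 or more of the fits that left out 1 array. Other probe set rules also moved some of these: with the probe set of largest variance Scd2 was -0.91 and St8sia6 0.98 (adjusted p = 0.679 and 0.0756), and averaged over their probe sets Ikzf2 was -1.06, Bub1 -1.88 and Anxa2 -0.45 (adjusted p = 0.0728, 0.0822 and 0.127), so these calls were lost. With the compared groups fitted alone, Ccl5 and Atxn1 missed it as well (adjusted p = 0.0565 and 0.0682).

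Liver transcripts appeared in a thymic array outside the comparison: the mean log2 level of 7 liver genes was 9.39 in Foxp3- CD24hi replicate 3, against 4.09 to 4.50 in the other 26 arrays. Leaving that array out changes only the shared estimate of the spread, so the differences of the main comparison could not move. In limma's test without it, 2 named genes lost their call, B4galt1 and Tnfrsf1b (adjusted p = 0.0516 and 0.0513), and 0 gained one.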

How the results depend on the processing

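No named difference of LN naive against Foxp3- CD24int turned its direction past the threshold under any alternative. The block, the compared groups fitted alone and the fit without dim genes leave each difference as it is. Leaving out the array with liver transcripts does so too, so only the other alternatives could have turned one. With the replicate number as a block, 2640 genes passed (1408 higher, 1232 lower), and 1249 (519 positive, 730 negative) for the difference between steps. The labels do not say what arrays of the same number share. The blocked counts were 2802 in the Treg step and 3407 for CD24lo against CD24int. In the check of the pairing, 4 of the 6 arrays of the main comparison correlated best with their own number. The deviations correlated at 0.39, -0.0006 and 0.16 for numbers 1, 2 and 3. By the cutoff on the lowest value these arrays do not count as paired, though numbers 1 and 3 gave positive values. The block changed the call of 13 named genes of the main comparison, all of them gained, among them Cd24a (adjusted p = 0.000112) and Il7r (adjusted p = 0.0349). Leaving out 1 array gave 1108 to 1352 calls in the main comparison, 399 to 461 at 2-fold, 1319 to 1530 in the Treg step, 468 to 634 between steps and 1706 to 1867 for CD24lo against CD24int. Of 146 named genes past the threshold, 31 lost the call under at least 1 alternative, 25 of them on leaving out an array, and 16 others gained it. Precision is limited by 3 arrays a group, with a median SE of 0.145. The dim genes were also left out as an alternative, and none of the 211 named genes kept in that fit lost its call, while 2 gained it. That fit leaves the difference of a kept gene unchanged and adjusts over 10716 genes instead of 18194, so calls were unlikely to be lost. Named genes that are dim are not in it.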

Other observations

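Nr1d2, a repressor of the circadian clock also known as Rev-erb beta, was at 8.94, 9.24 and 8.72 in LN naive cells, against 7.31, 7.30 and 7.15 in Foxp3- CD24int thymocytes, a rise of 1.71 ± 0.17 (SE), 3.28-fold, adjusted p = 1.19e-07. The groups did not overlap. It also rose in the Treg step, by 1.05 ± 0.17 (adjusted p = 8.74e-05). The gene was chosen after its values were seen.

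Dapk1, a death associated kinase, fell by 0.74 in the naive step and by 1.09 in the Treg step (adjusted p = 9.73e-05 and 3.46e-07). App, the amyloid precursor protein, rose by 2.23 ± 0.43 in the naive step (adjusted p = 0.00111) and was 4.23 ± 0.43 higher in CD24lo than in CD24int thymocytes (adjusted p = 8.20e-08).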
